A study of Mus musculus with 6 samples.

Results

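The cytosolic ribosomal proteins of mouse embryos were examined in pools of diabetes-exposed and control embryos. Members were all probe sets that the array's annotation assigns to a single gene symbol of the ribosomal protein form (Rpl, Rps, Rplp or Rpsa), which gave 100 of 45101 probe sets. They measured 46 of 18194 genes. There were 44 probe sets of 24 genes of the large subunit and 56 probe sets of 22 genes of the small subunit. A further 110 probe sets carried a ribosomal symbol together with other symbols and were left out, so that 28 ribosomal symbols, among them Rplp1, Rpl5, Rpl10, Rpl24, Rpl29, Rpl36a and Rpl3, had no probe set of their own.

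Whole embryos of the FVB strain were taken at 10.5 days of gestation from diabetic and from control pregnancies. Diabetes was induced in the dams at 7 to 9 weeks of age, before mating, with 2 injections of the beta-cell toxin Streptozotocin at 100 mg/kg, and dams with a blood glucose above 250 mg/dl were used; the control group was labelled only as control pregnancies. Each group held 3 pools of 3 embryos, every embryo of a pool came from a different pregnancy, and the embryos were described as morphologically normal. Each pool was hybridised to an Affymetrix mouse genome array, and precision is limited by the number of arrays.

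The cytosolic ribosome is built from a small subunit, which reads the messenger RNA, and a large subunit, which joins the amino acids. Each ribosome holds a single copy of nearly every ribosomal protein, so the genes of both subunits are usually expressed in a common proportion. Their messenger RNAs belong to the TOP class, which starts with a C followed by a run of C and T (a 5′ terminal oligopyrimidine tract) and whose translation is controlled by the mTOR pathway. Growing embryos make ribosomes at a high rate, and mouse mutants of single ribosomal protein genes have pigment, skeletal and blood defects. The genome also carries many processed copies of these genes, so a probe set may bind transcripts of near-identical sequence, and values of single genes are uncertain to that extent.

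The arrays of the 2 groups differed in more than the ribosomal genes. Signal from the 3′ part of the beta-actin transcript divided by that from its 5′ part, a measure of transcript integrity and labelling, was 10.1, 3.1 and 10.3 in diabetes-exposed pools 1, 2 and 3, against 1.71, 1.76 and 2.19 in the control pools. For the poly-A control transcripts added during labelling, the ratio of 3′ to middle signal was 6.56, 3.47 and 7.00 in diabetes-exposed pools and 2.10, 2.07 and 2.52 in control pools (two-sided exact permutation test, p = 0.1, the smallest p that 3 against 3 pools can give). Every diabetes-exposed pool lay above every control pool in these ratios, and diabetes-exposed pool 2 was nearest to the controls. In the ratio of 3′ to middle beta-actin signal, with 3.67, 2.20 and 3.93 in diabetes-exposed and 1.86, 1.83 and 2.26 in control pools, diabetes-exposed pool 2 lay below control pool 3 (two-sided exact permutation test, p = 0.2). Of 17 markers of embryonic tissues, 16 were on the array and all 16 passed the filter on dim probe sets, and their summed signal ran between 67117 and 81554 in diabetes-exposed and between 66457 and 70303 in control pools. Most of that sum came from the embryonic globins Hbb-bh1 and Hba-x, and the 14 other markers summed to 20010, 18546 and 22442 in diabetes-exposed and 16734, 17114 and 16513 in control pools. Of the 16, Afp (0.90 on the log2 scale), Myf5 (0.85), Ttr (0.82), Cdh5 (0.72), Tnnt2 (0.70) and Myh6 (0.56) were higher in diabetes-exposed pools, and the neural genes Sox1 (-1.86), Pax6 (-0.76) and Sox2 (-0.61) were lower. Among 11 markers of placenta and decidua, 7 were on the array, and their summed signal of 808, 1177 and 876 in diabetes-exposed pools, against 7409, 6647 and 7195 in control pools, followed Prl8a2, a prolactin-related gene of the decidua, with 39.0, 39.3 and 30.7 against 6522, 5699 and 6412. Tpbpa, Cts7 and Ctsq, markers of placental trophoblast, were too dim to be tested. The part of these differences in the results on ribosomal proteins was not tested.

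Ribosomal protein transcripts had higher signals in diabetes-exposed pools for most of the measured genes, in both subunits, on the signals as deposited. Of the 96 member probe sets that passed the filter on dim signals, 55 were higher in diabetes-exposed pools (limma, adjusted p under 0.05), against 14.4% of all 30025 tested probe sets. A single probe set, of Rps18, was called lower, against 21.8% of all tested probe sets. It passed the filter only through its control signals, so this call carries no support. The 40 other member probe sets did not pass the test. The median log2 fold change, diabetes-exposed over control, was 0.33 over members and -0.05 over all tested probe sets. This direction rested on how the arrays were scaled: the members' median was 0.63 after median centring and 0.094 after quantile normalization, and it turned to -0.086 after cyclic loess normalization. The same scalings shifted the median over all tested genes by 0.30, 0.14 and 0.08. Over all tested probe sets the median was 0.25, 0.11 and 0.046 in that order. The members' median was thus below that of all tested probe sets after quantile and cyclic loess normalization.

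The increases were small for most genes. At a minimum of 2-fold, 2 member probe sets were higher, those of Rpl37 and Rpl14, against 1.24% of all tested probe sets, and 1 of Rps18 was lower, against 11% of all tested probe sets. Signals of the groups did not overlap in 67 member probe sets that were higher and 2 that were lower in diabetes-exposed pools, beside 21.9% and 28% of all tested probe sets. Counted once per gene, at the probe set with the highest mean signal, 25 of 44 genes were higher and 0 were lower (limma; 32 higher and 0 lower at an unadjusted p under 0.05), against 2461 higher (17.6%) and 2779 lower (19.9%) among 13956 tested genes. Across all probe sets, 31 of the 44 genes had at least 1 that was higher. The same share over all tested genes was not computed, so this count cannot be read against the 17.6%. The 13 genes without a higher probe set were Rpl4, Rpl7, Rpl7a, Rpl8, Rpl12, Rpl27a, Rpl39l, Rplp0, Rplp2, Rps2, Rps4x, Rps26 and Rps27. Among these, Rpl12 alone had a negative log2 fold change at its brightest probe set (-0.12, adjusted p = 0.336). In bulk RNA of whole embryos, a change in the number of cells of a type and a change in RNA per cell cannot be told apart.

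Large and small subunit probe sets had nearly equal median changes. For the large subunit, 25 of 42 tested probe sets were higher and 0 were lower (limma, also 0 lower at an unadjusted p under 0.05). A positive log2 fold change was seen in 41 of the 42, and in 14023 of all 30025 tested probe sets. For the small subunit, 30 of 54 were higher and 1 was lower. Over all tested probe sets, 14.4% were higher and 21.8% were lower. The median log2 fold change was 0.33 in both, with a difference (large minus small) of -0.0073, and the lower quartile was 0.20 in both. Under the alternatives run, this difference lay between -0.058 (one probe set per gene) and 0.023 (probe sets with a plain _at name, the type designed for a single transcript).

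**Figure D1:**
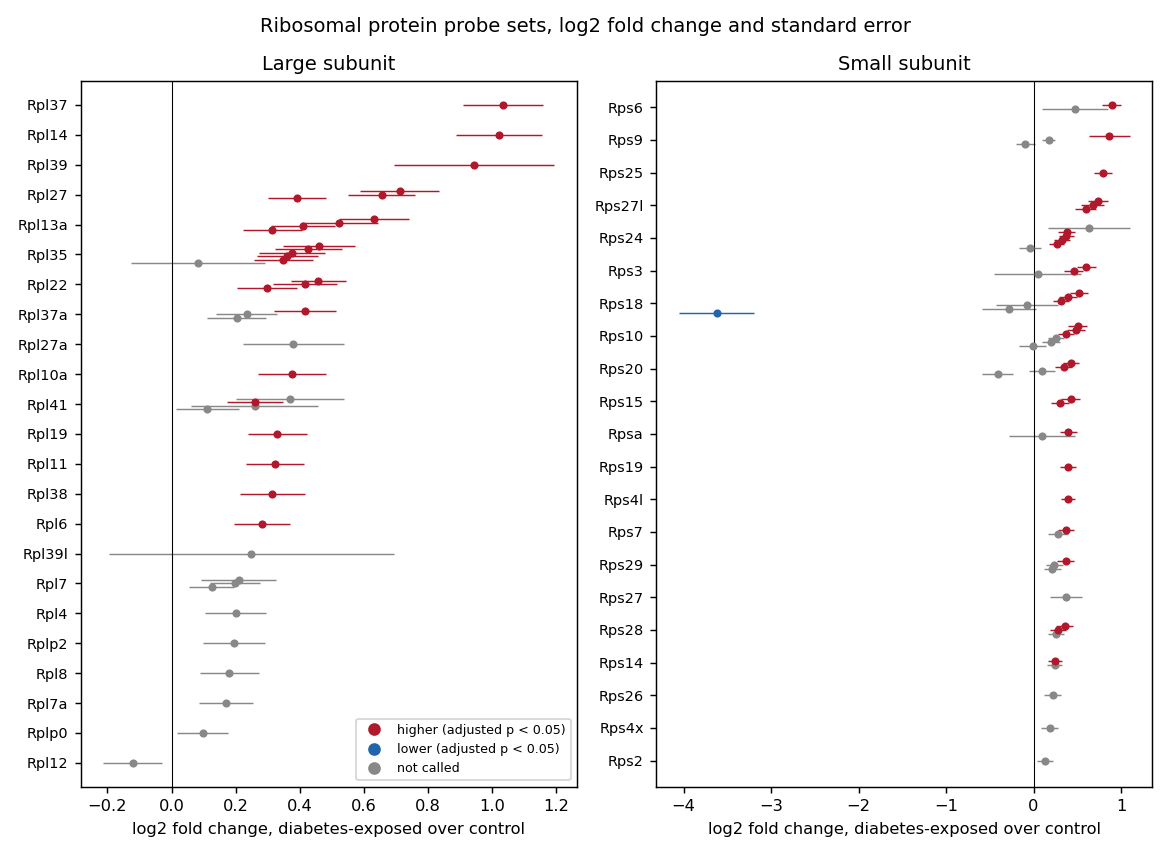
Log2 fold change, diabetes-exposed over control (horizontal axis), with its standard error for each of the 96 tested probe sets, 1 row per gene, large subunit at the left and small subunit at the right on separate axes. Red points passed the test as higher (55), the blue point of Rps18 as lower, and grey points did not pass. Of the 96 points, 88 lie between 0 and 1.03, and the lowest is the Rps18 probe set at -3.62.

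The pools of a group did not move equally. Relative to the mean of the controls, the median log2 signal of the members was 0.40, 0.18 and 0.42 in diabetes-exposed pools 1, 2 and 3, against 0.023, -0.040 and 0.036 in the control pools. Diabetes-exposed pool 2 was the lowest of its group in 74 of 96 member probe sets and in 53 of the 55 that were higher, and it was also the pool with the lowest 3′ ratios of its group. Pool 2 lay above all controls in 72 of the 96 probe sets. These counts were not made over all tested probe sets, so they are not shown to be particular to the members. Within each pool the subunits stayed together, with large minus small differences of -0.011, -0.012 and 0.014 in diabetes-exposed pools and 0.011, -0.014 and -0.0038 in control pools. The members held 4.98, 4.42 and 5.12% of the summed signal of the array in diabetes-exposed pools, and 4.19, 4.05 and 4.18% in control pools.

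**Figure D2:**
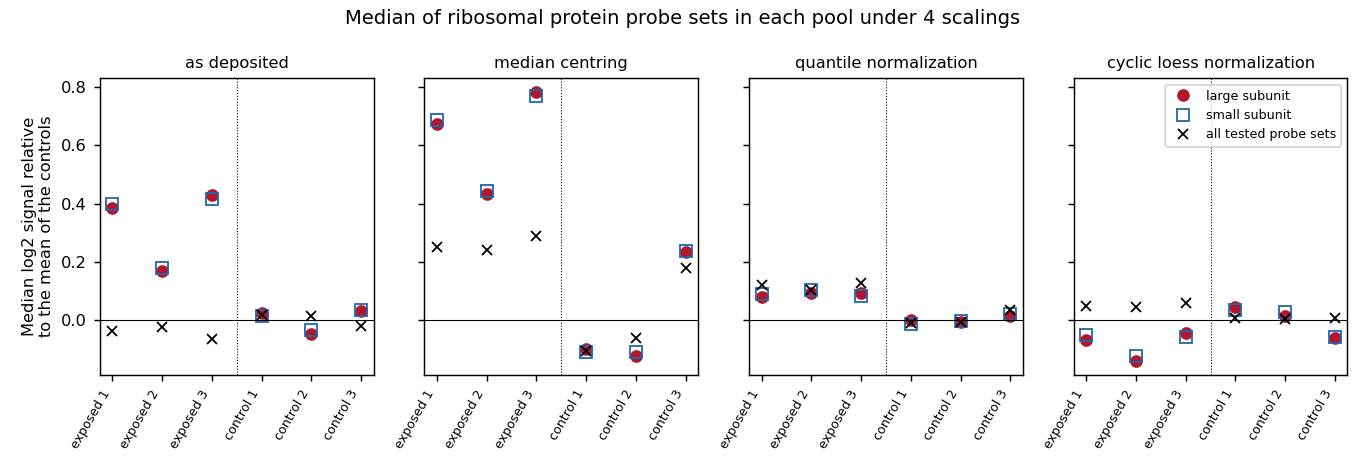
Median log2 signal relative to the mean of the controls (vertical axis) in each of the 6 pools, diabetes-exposed left of the dotted line, for large subunit probe sets (filled circles), small subunit probe sets (open squares) and all tested probe sets (crosses), under 4 scalings. The symbols of the 2 subunits coincide in every panel; their height in diabetes-exposed pools 1, 2 and 3 is 0.39, 0.17 and 0.43 for the large subunit as deposited and -0.067, -0.14 and -0.046 after cyclic loess normalization.

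Across the 6 sets with a single pool left out, the members' median ran from 0.28 to 0.41, and the count of calls moved further. Without diabetes-exposed pool 2 the count of higher members was 73, beside 16.5% of all tested probe sets. Without pools 1 and 3, an alternative added after the data were seen, the members' median was 0.18. That fit holds 1 diabetes-exposed pool, which is assumed to vary as the control pools do. The count of higher members was 23 without diabetes-exposed pool 1 and 31 without pool 3, beside 9.44% and 9.39% of all tested probe sets. Without control pool 1, 2 or 3 it was 27, 20 or 43, beside 9.07%, 9.06% or 13.5%. When the spike ratio of each array entered the fit as a covariate, 0 member probe sets passed in limma (6 higher and 3 lower at an unadjusted p under 0.05) and the median was 0.030, while 29 of all 30025 tested probe sets were higher and 334 were lower. Since the groups do not overlap in that ratio, it and the exposure cannot be told apart.

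A set of 12 genes had at least 1 probe set that kept a call as higher under all 4 scalings. It comprised Rpl13a, Rpl14, Rpl22, Rpl27, Rpl37 and Rpl39 of the large subunit and Rps3, Rps4l, Rps6, Rps9, Rps25 and Rps27l of the small subunit, with 15 probe sets or 15.6% of the tested members. Over all tested probe sets the same was seen for 3670, or 12.2%. The shares are close, so keeping the call was not particular to the members. None of the 15 had a mean signal above 15090, whereas 48 of the 96 tested members had one above 20000. These genes were identified after their values were seen. After cyclic loess normalization the brightest probe sets of Rpl22 (-0.17, limma, adjusted p = 0.0282) and Rps9 (-0.23, adjusted p = 0.0181) were called lower. Those of Rpl13a and Rpl27 then had negative values.

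On the signals as deposited, the largest increase was in Rpl37, which encodes a zinc-binding protein of the large subunit. Its signal was 9276, 6632 and 7795 in diabetes-exposed pools and 3515, 4004 and 3973 in control pools. All 3 diabetes-exposed pools lay well above the controls, a difference of 1.03 on the log2 scale (SE 0.12, adjusted p = 8.15e-04), or 2.05-fold. After cyclic loess normalization it was 0.84 (adjusted p = 0.0012), below Rpl39 at 1.18 and Rpl14 at 1.01, and after quantile normalization it was 0.80, below Rpl39 at 1.27 and Rpl14 at 1.04.

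Rpl14, another large subunit protein, had 2668, 2119 and 2748 in diabetes-exposed pools against 1287, 1063 and 1359 in control pools. The groups were separated in every pairing of pools, with a log2 fold change of 1.02 (SE 0.13, adjusted p = 0.0011). Cyclic loess normalization left it at 1.01.

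Rpl39 encodes a very short protein that lines the exit tunnel for the growing peptide. Signals were 371, 308 and 340 in diabetes-exposed pools, against 121, 183 and 247 in control pools. The controls differed among themselves more than the diabetes-exposed pools did, and the log2 fold change of 0.94 had a larger error (SE 0.25, adjusted p = 0.0182). The call was lost without diabetes-exposed pool 1 (adjusted p = 0.0682) or 3 (adjusted p = 0.0554). Its relative Rpl39l, known for its expression in testis, was dim, with 81.9, 42.6 and 31.8 in diabetes-exposed pools and 47.2, 44.5 and 31.5 in control pools, and did not pass the test (0.25, adjusted p = 0.701).

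Rps6 is the small subunit protein that S6 kinases phosphorylate downstream of mTOR. It had signals of 5344, 4253 and 5363 in diabetes-exposed pools, against 2491, 2642 and 2899 in control pools, with no overlap. The log2 fold change was 0.89 (SE 0.11, adjusted p = 9.51e-04), or 1.86-fold. A second, dim probe set of Rps6 stood at 0.47 (adjusted p = 0.361).

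Rps25, a small subunit protein used by several viral internal ribosome entry sites, had 2177, 1810 and 2057 in diabetes-exposed pools and 1181, 1073 and 1224 in control pools. This was a log2 fold change of 0.80 (SE 0.10, adjusted p = 0.00107). The groups lay far apart relative to the spread within each. In the fit that includes the spike ratio, the 5 genes with the largest increases stayed positive, between 0.43 and 0.59, and none passed the test (adjusted p between 0.172 and 0.739).

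Rps27l, a p53 target and close relative of Rps27, rose at all 3 of its probe sets, by 0.59, 0.68 and 0.74 on the log2 scale. At the brightest, signals were 18398, 14082 and 17207 in diabetes-exposed pools, against 10327, 10352 and 12120 in control pools. All diabetes-exposed pools were above all controls (0.59, SE 0.12, adjusted p = 0.00488). Rps27 itself was measured by a single dim probe set with 215.9, 305.9 and 253.7 in diabetes-exposed pools and 175.3, 211.7 and 210.7 in control pools. It did not pass the test as deposited (0.37, adjusted p = 0.153) and passed after each of the other 3 scalings, at 0.60 to 0.69.

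**Figure D3:**
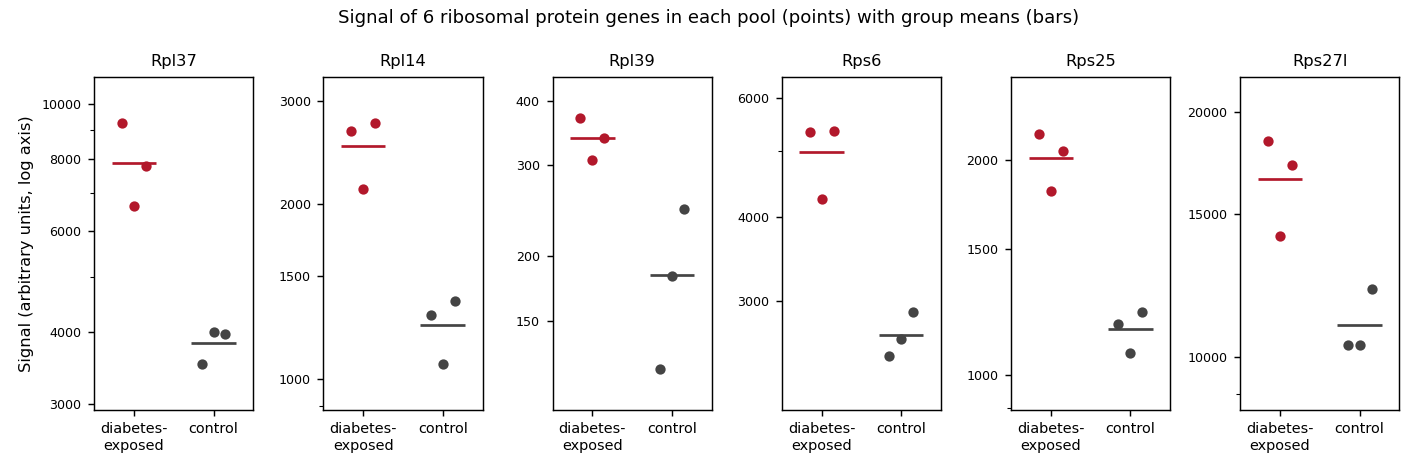
Signal in arbitrary units (vertical log axis, a range of its own in each panel) of Rpl37, Rpl14, Rpl39, Rps6, Rps25 and Rps27l, with 1 point per pool in replicate order and a bar at the group mean, diabetes-exposed left and control right. In each panel the 3 diabetes-exposed points lie above the 3 control points, and the gap is narrowest for Rps27l, with 14082 for the lowest diabetes-exposed and 12120 for the highest control pool.

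The starts of these genes show what the rule for members did not use. In the RefSeq promoter table (mouse build GRCm38.p6), 40 of the 46 member genes had an entry. A C at the annotated start followed by at least 4 bases that were C or T, read on the gene's own strand, was present in 8 of the 40 (20%), and in 813 of 27025 genes in the table (3.01%). The 8 were 4 large and 4 small subunit genes, with a tract of 5 to 11 bases. Printed here are 20 bases before the annotated start and the first 20 transcribed bases of these 8 genes, followed by the other genes with the largest increases, with the tract in capitals.
Rpl14 (chr9:120571497-120571536, plus strand): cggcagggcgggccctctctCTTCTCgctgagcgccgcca
Rpl35 (chr2:39005112-39005151, minus strand): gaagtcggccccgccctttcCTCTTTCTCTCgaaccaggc
Rpl38 (chr11:114668560-114668599, plus strand): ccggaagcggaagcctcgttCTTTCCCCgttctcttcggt
Rplp2 (chr7:141447631-141447670, plus strand): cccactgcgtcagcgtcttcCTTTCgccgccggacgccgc
Rps10 (chr17:27635225-27635264, minus strand): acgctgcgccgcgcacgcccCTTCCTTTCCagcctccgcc
Rps18 (chr17:33955646-33955685, minus strand): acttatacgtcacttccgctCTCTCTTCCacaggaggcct
Rps27 (chr3:90213629-90213668, minus strand): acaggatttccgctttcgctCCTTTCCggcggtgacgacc
Rps6 (chr4:86857348-86857387, minus strand): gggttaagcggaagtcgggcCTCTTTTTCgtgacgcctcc
Rpl37 (chr15:5116593-5116632, plus strand): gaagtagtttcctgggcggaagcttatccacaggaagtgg
Rpl39 (chrX:37085203-37085242, minus strand): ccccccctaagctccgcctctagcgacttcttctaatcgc
Rps25 (chr9:44407694-44407733, plus strand): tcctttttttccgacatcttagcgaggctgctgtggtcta

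Rps6 and Rpl14, among the 5 genes with the largest increases, had such a tract at the annotated start, and the annotated starts of Rpl37, Rpl39 and Rps25 begin with other bases. At the brightest probe set, 5 of the 8 genes with the tract were higher, with a median log2 fold change of 0.36 and a range of 0.20 to 1.02. Of 30 tested genes with an entry but no tract at the start, 18 were higher, with a median of 0.33 and a range of -0.12 to 1.03. The 2 sets overlap over nearly their whole range. A tract that lies a few bases from the annotated start is not counted here.

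Other proteins of the large subunit showed smaller differences. Rpl11, which with Rpl5 and the 5S RNA forms a particle that binds Mdm2, had 21879, 19292 and 23170 in diabetes-exposed pools against 17838, 16035 and 17435 in control pools (0.32, adjusted p = 0.0228). Rpl38, whose loss gives the short-tailed Tail-short mouse, had 35641, 28991 and 36865 in diabetes-exposed pools against 27961, 25742 and 27540 in control pools (0.31, adjusted p = 0.0404). Neither gene's groups overlapped, yet both turned under cyclic loess normalization. Rpl11 was then at -0.096 (adjusted p = 0.217), and Rpl38 was called lower at -0.19 (adjusted p = 0.0281). Both lost the call in several of the sets with a pool left out.

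Rpl22, needed for alpha-beta T cells in mice, was higher at its 3 probe sets by 0.30, 0.42 and 0.46, of which the dimmest, with 5862, 5548 and 5987 in diabetes-exposed pools and 3948, 4134 and 4606 in control pools, stayed higher under every scaling. At its brightest probe set the value turned to -0.17 after cyclic loess normalization and was called lower (adjusted p = 0.0282). Rpl13a, which in human cells can leave the ribosome to repress inflammatory transcripts, was higher at 4 of 4 probe sets, by 0.31 to 0.63, and the brightest turned to -0.099 after cyclic loess normalization. Rpl27a, the gene mutated in the Sooty foot ataxia mouse, had 268.8, 301.1 and 264.6 in diabetes-exposed pools against 233.8, 223.6 and 186.1 in control pools and did not pass the test (0.38, adjusted p = 0.0939). It passed after the other 3 scalings, at 0.61 to 0.70.

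The stalk of the large subunit, which recruits the translation factors, was among the members with the smallest differences. Its base protein Rplp0 had 26602, 24263 and 27861 in diabetes-exposed pools and 25334, 23829 and 24347 in control pools, so that the groups overlapped. The log2 fold change was 0.097 (SE 0.079, adjusted p = 0.377). It was called lower after quantile (-0.18, adjusted p = 0.0116) and cyclic loess normalization (-0.38, adjusted p = 0.00207). Rplp2, an acidic stalk protein, stood at 0.20 (adjusted p = 0.15) and Rpl7a at 0.17 (adjusted p = 0.153). Both were negative after quantile and cyclic loess normalization. After cyclic loess normalization Rplp2 (adjusted p = 0.00324) and Rpl7a (adjusted p = 0.00544) were called lower. Rpl3l, the muscle form of Rpl3, was too dim to be tested, with 27.5, 29.1 and 26.0 in diabetes-exposed pools and 25.3, 0.8 and 5.8 in control pools.

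Among small subunit proteins, Rps3, which lies at the entry of the messenger RNA channel, was higher at 2 of 3 probe sets. The brighter had 26106, 21409 and 27468 in diabetes-exposed pools against 18524, 16665 and 19216 in control pools (0.46, adjusted p = 0.0113). The other had 2626, 2276 and 2863 against 1565, 1742 and 1796 (0.60, adjusted p = 0.00355), and it alone kept its call under cyclic loess normalization (0.57).

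Rps19, the gene first linked to Diamond-Blackfan anaemia in people, had 22424, 19943 and 23946 in diabetes-exposed pools and 16589, 15907 and 17774 in control pools. Its groups did not overlap (0.40, adjusted p = 0.00957), but cyclic loess normalization brought it to -0.024. Rpsa, also called the laminin receptor, stood at 0.40 (adjusted p = 0.0136) and Rps7, whose mouse mutants have skeletal and pigment defects, at 0.37 (adjusted p = 0.0115) at their brightest probe sets, and cyclic loess normalization turned them to -0.086 and -0.10. Rps14, lost in the human 5q- syndrome, had a brightest probe set at 0.24 that did not pass (adjusted p = 0.0544). Another at 0.25 did (adjusted p = 0.0375). The brightest was called lower after cyclic loess normalization (-0.22, adjusted p = 0.0422).

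The pair of Rps4x and Rps4l, close relatives, differed in their calls. Rps4l had 2968, 3304 and 3200 in diabetes-exposed pools against 2449, 2288 and 2481 in control pools (0.39, adjusted p = 0.00723), and was at 0.31 after cyclic loess normalization. Rps4x had 29234, 24939 and 31673 against 26080, 24915 and 24219, with overlapping groups (0.18, adjusted p = 0.177). It was called lower after that normalization (-0.30, adjusted p = 0.0115). The difference between the 2 genes was not tested.

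Probe sets of the same gene mostly moved together. As deposited, of 21 member genes with at least 2 tested probe sets, Rpl13a, Rpl22, Rpl27, Rps15 and Rps27l were higher at all of them. A further 14 were higher at some, Rpl7 at none, and Rps18 was called in both directions. Over the whole array, 559 of 6515 such genes (8.58%) were called in both directions. The ratio of 2 probe sets within an array does not depend on a scaling factor, and the change of this ratio was tested against the brightest probe set of each gene. Of 52 member pairs, 1 had an unequal change (limma, adjusted p under 0.05; 2 pairs at an unadjusted p under 0.05), against 23.2% of 11266 pairs over all genes. That pair holds the dim Rps18 probe set 1421837_at, whose diabetes-exposed signals give no measured level.

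How far same-gene probe sets diverged went with their brightness. In 33 pairs with both mean signals over 10000, the absolute difference of the log2 fold changes had a median of 0.11 and a maximum of 0.32, and 0 pairs were unequal. In the 19 other pairs the median was 0.31. The maximum among bright pairs was in Rpl27, where 1448217_a_at rose by 0.71 and the brightest probe set by 0.39, a difference that did not pass the test (adjusted p = 0.122).

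Rps18, a protein of the small subunit head, was the gene called in both directions as deposited, with the lower call from a single dim probe set. Its 3 bright probe sets were higher by 0.52, 0.39 and 0.32. The brightest, 1455572_x_at, had 33782, 26900 and 34578 in diabetes-exposed pools and 22689, 20654 and 22754 in control pools, without overlap (adjusted p = 0.00631). This increase fell to 0.040 after cyclic loess normalization and did not pass there (adjusted p = 0.628).

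Another probe set of Rps18, 1421837_at, had 17.1, 23.7 and 8.2 in diabetes-exposed pools against 208.1, 170.0 and 175.3 in control pools. Each of the diabetes-exposed signals lay under the mean signal of 26.7 below which probe sets were not tested. That value is the cut of the filter and not a limit of detection. The control pools had a geometric mean of 183.7, and the size of the fold change against it was not established. The fitted log2 fold change of -3.62 moved with the setting, to -3.96 without diabetes-exposed pool 2 and to -2.17 with a pseudocount of 32, and with the spike ratio in the fit it did not pass (-2.27, adjusted p = 0.241). The probe set was tested only because its control signals were high, and it is absent from the tested set under a filter of 50%. The remaining probe sets, 1421838_at and 1450390_x_at, had signals under 77 in every pool, overlapping groups and no call (-0.28 and -0.077). Which transcripts 1421837_at binds was not examined.

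**Figure D4:**
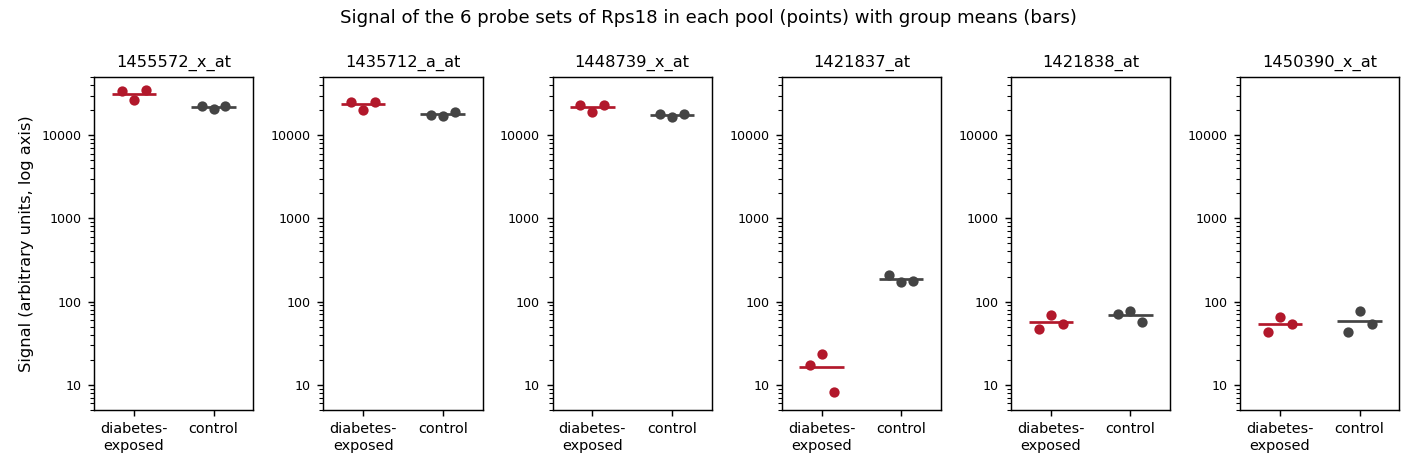
Signal in arbitrary units (vertical log axis, equal range in all panels) of the 6 probe sets of Rps18, ordered by mean signal, with 1 point per pool in replicate order and a bar at the group mean, diabetes-exposed left and control right. The 3 bright probe sets are higher in diabetes-exposed pools, 1421837_at is lower (8.2 to 23.7 against 170.0 to 208.1), and in the 2 other dim probe sets the groups overlap.

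Rps20, mutated in a Dark skin mouse, came nearest to this pattern. The brightest probe set, 1456373_x_at, had 32911, 28062 and 34214 in diabetes-exposed pools and 24336, 22933 and 23239 in control pools (0.43, adjusted p = 0.00704). The dim 1450417_a_at had 310.9, 364.2 and 231.7 in diabetes-exposed pools against 382.4, 383.2 and 419.9 in control pools, all lower, and did not pass the test (-0.41, adjusted p = 0.108). The difference between the probe sets was -0.84 (SE 0.35, adjusted p = 0.118). Rps10 had 6 probe sets with log2 fold changes of -0.0093 to 0.50, of which 3 were higher. Its brightest, at 0.25, just missed the threshold (adjusted p = 0.0542). After cyclic loess normalization the brightest was called lower (-0.24, adjusted p = 0.00963).

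Rps9 was singled out after its values were seen, because its probe sets spread over 0.96 on the log2 scale. Probe set 1434624_x_at rose by 0.87 (adjusted p = 0.0201), with 574.5, 581.2 and 1035.0 in diabetes-exposed pools against 328.4, 383.9 and 452.7 in control pools. The others did not pass, at -0.096 and, for the brightest, 0.17. After cyclic loess normalization the brightest was called lower (-0.23, adjusted p = 0.0181). The high value of diabetes-exposed pool 3 stood apart from pools 1 and 2 of its group.

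The increase varied with signal strength, and so did that of other genes. The other probe sets counted here leave out the 106 tested ones that carry a ribosomal symbol with others. Member probe sets with a mean signal under 1000 had a median log2 fold change of 0.098, and 2 of 18 were higher, beside a median of -0.13 with 7.3% higher among other probe sets that dim. Between 1000 and 10000 the median was 0.46, with 7 of 11 higher, and other probe sets in that range had a median of 0.12 with 35% higher. Between 10000 and 20000, members had a median of 0.32 with 15 of 19 higher, and the 362 other probe sets there had a median of 0.34 with 63.3% higher. Above 20000, members had a median of 0.34 with 31 of 48 higher, and the 66 others had a median of 0.22 with 33.3% higher. Every one of these 114 probe sets had a positive log2 fold change as deposited. After cyclic loess normalization the medians above 20000 were -0.13 for members and -0.24 for the others. Of the 48 members, 20 were then lower and 0 were higher, and 0% of the others were higher. The share of the others that was lower was not counted.

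**Figure D5:**
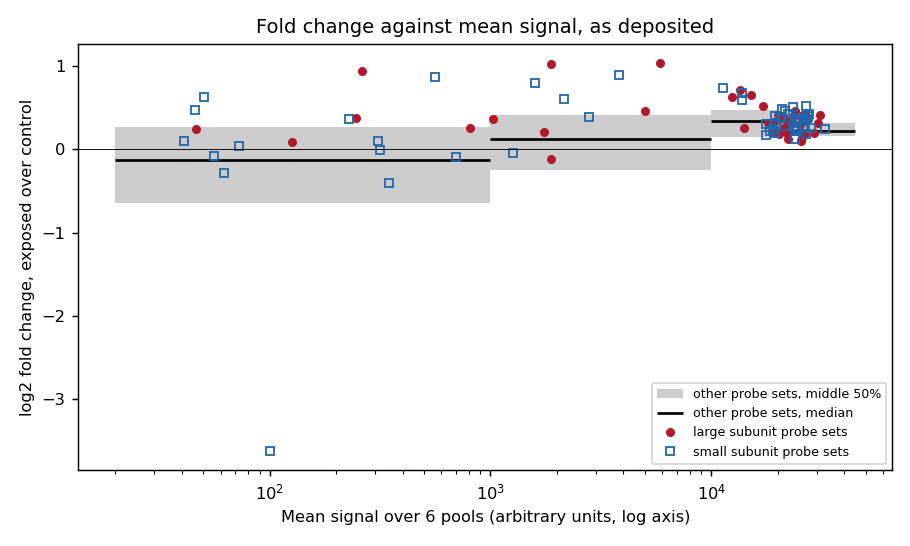
Log2 fold change, diabetes-exposed over control, as deposited (vertical axis) against the mean signal over the 6 pools (horizontal log axis) for large subunit (filled circles) and small subunit (open squares) probe sets. Black lines and grey bands give the median and the middle 50% of other tested probe sets in 4 signal ranges, with medians of -0.13, 0.12, 0.34 and 0.22. The 106 that carry a ribosomal symbol with others are left out. Members stand above the black line most clearly between 1000 and 10000, at a median of 0.46.

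The type of probe set gave a similar picture. Members whose name ends in _x_at, which share probes with other transcripts, were higher in 29 of 39 cases with a median of 0.37, and other _x_at probe sets on the array had a median of 0.32 with 35.1% higher. Members with a plain _at name were higher in 11 of 28 cases and lower in 1, with a median of 0.32, beside a median of -0.07 and 10.9% higher among other _at probe sets. The 106 tested probe sets that carry a ribosomal symbol with others were not among the other probe sets here. They had a median of 0.33, with 70 higher and 3 lower.

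Genes that work with the ribosome were counted from lists at the brightest probe set of each gene, where 17.6% of all tested genes were higher and 19.9% were lower. Among ribosomal proteins outside the rule and close relatives, 3 of 7 had a probe set of their own, and all 3 were higher as deposited: Fau, which encodes the small subunit protein Rps30 as a fusion (0.42), Rpl22l1 (0.46) and Rpl7l1 (0.50). After quantile and cyclic loess normalization only Rpl7l1 passed, at 0.35 and 0.37. Of 14 genes for elongation factors and other TOP transcripts, 7 were higher and 1 was lower, with a median of 0.24. The counts were 8 and 0 after median centring, 1 and 4 after quantile and 1 and 6 after cyclic loess normalization, and the median turned to -0.066 and -0.15 after the last 2. The lower one was Eef2, which moves the ribosome along the messenger RNA, with 11676, 13047 and 11522 in diabetes-exposed pools against 15963, 15503 and 15486 in control pools (-0.38, adjusted p = 0.00634), though it stood at -0.073 after median centring and was not called there.

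Among 24 initiation factors, 6 were higher and 4 were lower, beside 17.6% and 19.9% of all tested genes, with a median of 0.17. The counts were 12 and 1 after median centring, 4 and 7 after quantile and 4 and 5 after cyclic loess normalization, with medians of -0.052 and -0.081 after the last 2. Of 11 measured genes of the eIF3 complex, which binds the small subunit, 6 were higher and 2 were lower. The higher ones were Eif3k (0.65), Eif3i (0.59), Eif3c (0.40), Eif3h (0.29), Eif3f (0.26) and Eif3e (0.24), the lower ones were Eif3a (-0.86) and Eif3b (-0.70), and Eif3d (0.19), Eif3l (0.083) and Eif3m (0.22) did not pass. Eif3k, Eif3i and Eif3a kept their call after each of the other 3 scalings, and Eif3b kept its own except after median centring (-0.40, adjusted p = 0.0621). With the spike ratio in the fit no eIF3 gene passed, and Eif3k was at 0.32, Eif3i at 0.14 and Eif3a at -0.23. Eif3c, Eif3e, Eif3f and Eif3h did not pass after quantile or cyclic loess normalization, and Eif3l was lower after quantile normalization (-0.22, adjusted p = 0.0379). Eif1ax, which helps to select the start codon, was higher by 0.67.

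Of 52 genes for ribosome assembly and RNA polymerase I, which makes the ribosomal RNA, 17 were higher and 10 were lower, beside 17.6% and 19.9% of all tested genes, with a median of 0.10. The counts were 25 and 4 after median centring, 16 and 7 after quantile and 15 and 9 after cyclic loess normalization, with medians of 0.41, 0.10 and 0.082. Nop10, a protein of the box H/ACA particles that modify ribosomal RNA, had 15308, 12074 and 14498 in diabetes-exposed pools against 7220, 6838 and 8001 in control pools (0.92, adjusted p = 7.32e-04). Polr1b, the second largest subunit of RNA polymerase I, had 296.6, 472.7 and 302.3 against 977.7, 1029.0 and 1014.7 (-1.53, adjusted p = 7.58e-04). Its largest subunit Polr1a stood at -0.89 and Tcof1, which promotes ribosomal RNA synthesis, at -1.18, whereas the small subunits encoded by Polr1c, Polr1d and Polr1e were higher by 0.83, 0.70 and 0.62. These 6 polymerase and Tcof1 directions were the same after the other 3 scalings. None passed in the fit that includes the spike ratio (adjusted p between 0.182 and 0.799), where Polr1a turned to 0.14. In that fit 0 genes of these lists were higher, Eef2, Eif1ax and Nop10 among those that did not pass. The initiation factor Eif4h alone was lower (-0.61, limma, adjusted p = 0.0434). Over all 30025 tested probe sets 29 were then higher and 334 lower.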

How the data were processed

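Signals of 6 arrays were analysed, 3 of diabetes-exposed and 3 of control embryo pools. The authors computed the deposited intensity values with MAS5 in the GCOS software, with versions not given in the sources used here, and the trimmed mean of each array was 500, so that a signal is relative to the rest of its pool. Values were taken as log2 without further scaling. Of 45101 probe sets, 34958 had 1 gene symbol in the platform table, 932 had several and 9211 had none; 64 control probe sets and the dimmest 33.3% by mean log2 signal (under 26.7) were left out, which left 30025, of which 96 were members. Rpl27a 1419799_at, Rpl3l 1449398_at, Rps16 1455835_at and Rps4x 1420303_x_at were among those left out. Groups were compared with limma 3.58.1 (trend, R 4.3.3) and p-values adjusted after Benjamini and Hochberg over the 30025 probe sets, without a block for the replicate number. The labels call the pools biological replicates, and p-values measure the spread between pools. The procedure was tested on simulated data.

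Named genes were the 5 called genes that rose most and the 5 that fell most at their brightest probe set, genes with probe sets called in opposite directions, the 6 same-gene pairs with the smallest adjusted p, and a fixed list of members with special roles or relatives; no gene was lower at its brightest probe set. The members and all gene lists were chosen with earlier results of these data known. Alternatives were 3 other scalings, a pseudocount, other filters, no trend, a fold minimum, 1 probe set per gene, _at probe sets only, the spike ratio as a covariate, a replicate block, each pool left out, and the tests after the methods. Figures were drawn with matplotlib 3.10.9. Protein lengths were not used here.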

Additional observations from a re-analysis of the deposited data

How the results depend on the processing

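Over all tested probe sets 4318 were higher and 6550 lower as deposited, and 7527 and 3902 after median centring. The counts were 6314 and 5216 after quantile and 5213 and 5750 after cyclic loess normalization. The median over all tested probe sets was -0.05 as deposited, 0.25 after median centring, 0.11 after quantile and 0.046 after cyclic loess normalization. Among ribosomal probe sets 30 were higher and 4 lower after quantile and 17 and 24 after cyclic loess normalization, of which 27 and 15 were among the 55 higher as deposited; their median was 0.63 after median centring, 0.094 after quantile and -0.086 after cyclic loess normalization. With the spike ratio as a covariate 0 were higher, 0 lower (limma; 6 and 3 at an unadjusted p under 0.05) and the median was 0.030.

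The count of higher ribosomal probe sets was 18 with no trend, 13 at a minimum of 1.5-fold, 25 with one probe set per gene, 11 for _at probe sets and 20 to 73 when each pool was left out. Over all tested probe sets, 10.5% were higher with no trend and 9.06% to 16.5% when each pool was left out. With one probe set per gene 17.6% of all tested genes were higher, and 10.9% of other _at probe sets were. The share over all tested probe sets at 1.5-fold was not computed. The count of lower ribosomal probe sets was 0 with a filter of 50% (0 at an unadjusted p under 0.05) or one probe set per gene, and 1 to 2 when each pool was left out. Without diabetes-exposed pools 1 and 3, an alternative chosen after seeing the data, 12 were higher with a median of 0.18; that fit holds 1 diabetes-exposed pool, which is assumed to vary as the control pools do. The methods' t-test gave 0 ribosomal probe sets higher and 0 lower after adjustment (39 and 1 unadjusted), and the regularized test gave 56 and 1. For these tests the counts over all tested probe sets were not made. The large minus small difference was -0.023 after cyclic loess normalization, 0.0071 with a pseudocount of 32, -0.027 with a filter of 50%, -0.058 with one probe set per gene, 0.023 for _at probe sets and -0.013 to 0.015 when each pool was left out. Unequal same-gene pairs numbered 0 with a filter of 50% (limma; 3 unadjusted), with the spike ratio (1 unadjusted) and without diabetes-exposed pools 1 and 3 (1 unadjusted), and 0 to 1 when each pool was left out.

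The labels do not say whether equal replicate numbers pair the samples, and the groups were compared as unpaired. The deviations of same-numbered pools correlated at 4.94e-05, 0.076 and 0.118, which cannot settle this. With the replicate block 60 ribosomal probe sets were higher and 1 lower, beside 4330 (14.4%) and 6687 of all 30025 tested probe sets.

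Of 521 alternatives for 35 named values, 402 kept direction and call, 67 lost and 20 gained a call, and 32 changed sign. The filters, the fit with no trend and the replicate block cannot change a direction. Values that were not called and stayed so count as kept, so the 402 does not measure how firm the calls are. After cyclic loess normalization Rps20 1456373_x_at was at -0.058, Rpl27 at -0.065, Rps10 at -0.24, Rplp0 at -0.38, Rplp2 at -0.30, Rpsa at -0.086, Rpl11 at -0.096, Rps14 at -0.22, Rpl22 at -0.17, Rpl38 at -0.19, Rps19 at -0.024, Rps7 at -0.10, Rpl13a at -0.099, Rpl7a at -0.31 and Rps4x at -0.30. After quantile normalization Rps10 was at -0.0086, Rplp0 at -0.18, Rplp2 at -0.073, Rps14 at -0.050, Rpl7a at -0.11 and Rps4x at -0.091. With the spike ratio Rps10 was at -0.066, Rplp0 at -0.11, Rplp2 at -0.19, Rpl22 at -0.050, Rpl38 at -0.10, Rpl7a at -0.048, Rps4x at -0.15 and Rps20 1450417_a_at at 0.12, and relative to the brightest probe set Rps20 1450417_a_at at 0.0062 and Rps18 1421838_at at 0.31. Rpl39l ran from -0.14 (without diabetes-exposed pool 1) to 0.55 (without pool 3) when each pool was left out. Of the values that changed sign after cyclic loess normalization, those of Rps10, Rplp0, Rplp2, Rps14, Rpl22, Rpl38, Rpl7a and Rps4x were called lower there. The cause of these changes was not tested.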
